A study of Homo sapiens with 6 samples.

Results

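The HOX cluster genes encode homeodomain transcription factors that lie in 4 clusters on separate chromosomes, HOXA to HOXD. They were taken as every row of the expression table whose symbol was HOX, a cluster letter and a number, and 24 of the 32322 gene rows used are described. In the GENCODE release 29 annotation these are 8 HOXA genes on chromosome 7, 8 HOXB genes on chromosome 17, 7 HOXC genes on chromosome 12 and 1 HOXD gene on chromosome 2. Other HOX genes were not analysed here. RNA came from cells titled MDA-MB-231, an established line of triple-negative breast cancer labelled as wild type. Of the 6 libraries, 3 were from cells given 500 nM of compound 28 for 4 h and 3 from cells given DMSO, with no separate time stated. The series title calls compound 28 a degrader of CDK9, the kinase of P-TEFb that releases paused RNA polymerase II into elongation. The cell line labels count upward by sample to MDA-MB-236 and so disagree with the titles, whose name is used.

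HOX genes are numbered by paralog group along each cluster. During development they are switched on in that order, so that low-numbered genes pattern the hindbrain and upper trunk and high-numbered genes the lower trunk and limbs. The pattern is kept in adult cells by Trithorax-group activators such as the MLL complex and by Polycomb-group repressors. HOX proteins bind DNA with cofactors of the TALE homeodomain class, chiefly the PBX and MEIS families. In blood cells HOXA9 and its partner MEIS1 are known for sustaining leukaemia, and in breast cancer lines several HOXB and HOXC genes have been studied as regulators of growth and invasion.

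Reads assigned to genes numbered 28505897 to 34062330 in the compound 28 libraries and 37186728 to 54830987 in the DMSO libraries. Reads in the counter's summary rows, which name no gene, made up 40.4% to 46.9% of all reads with compound 28 and 30.4% to 32.8% with DMSO. On the log2 scale over 14147 genes, libraries correlated at 0.986 to 0.989 within compound 28, at 0.985 to 0.994 within DMSO and at 0.788 to 0.815 between groups. The labels do not say whether replicates were separate cultures; the p-values therefore reflect the spread among these libraries alone, and that spread may be technical. The labelled cell type was checked against 32 genes of mesenchymal breast carcinoma lines, of which 26 were analysed. Of these, 8 stayed under a normalized count of 10 in every library, among them CAV1, MET, KRT7 and YAP1. Others on this list were abundant, with DMSO means of 10749 for MMP14, 9049 for CD44 and 3056 for VIM. The list's summed level was 27509 to 28257 with compound 28 and 29757 to 30402 with DMSO. Of 30 myeloid and leukaemic markers, 29 were analysed, only CD68 stayed under 10 in every library, and the sum was 355611 to 377815 with compound 28 and 248415 to 279312 with DMSO. Summed erythroid and megakaryocytic markers were 2089 to 3209 with compound 28 and 1349 to 1562 with DMSO. The top of the erythroid range was compound 28 replicate 2, which held 695 reads of the haemoglobin gene HBB, against 0 in both other compound 28 libraries and 0, 1 and 0 in DMSO replicates 1 to 3. Without that library 2 HOX genes were called higher and 5 lower, as with it. Most of the rest of this list's sum with compound 28 was ITGA2B, a platelet integrin gene, at a mean of 2044.5 against 624 with DMSO. The erythroid genes EPOR and KLF1 went the other way, at 117 and 7.82 with compound 28 against 773 and 53.6 with DMSO. GATA1 did not pass the test. Summed lymphoid markers were 487 to 499 with compound 28 and 189 to 194 with DMSO. Luminal epithelial markers, of which 6 of 8 stayed under 10 in every library, summed to 25.0 to 48.2 with compound 28 and 13.8 to 21.4 with DMSO. By these lists the libraries resembled myeloid cells more than the titled breast carcinoma line. The identity of the cells was not tested, so the HOX levels cannot be assigned to that line with certainty. The part of these markers in the HOX results was not tested.

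After compound 28, HOXA10, HOXB6, HOXB7, HOXC6 and HOXC10 were lower. All of these but HOXA10 passed the filter on low reads only through the DMSO libraries. Falls lay between 2.22-fold for HOXA10 and 60.1-fold for HOXB6, the latter with 3 reads set as a floor for compound 28. HOXA9 and HOXB3 were 1.51-fold and 1.82-fold higher on the authors' scale, but had negative changes when libraries were scaled on mitochondrial or ribosomal protein mRNAs. HOXA11, HOXB4 and HOXC11 did not pass the test. The HOXA sum stayed dominated by HOXA9, the HOXB sum by HOXB3 and HOXB4, and the HOXC sum was 0.333 of its DMSO level. Values are normalized counts, that is reads divided by 1 size factor per library. Calls rest on limma applied to log2(normalized count + 1), with an adjusted p below 0.05 over all 18278 genes tested. Of the 24 HOX rows, 10 had enough reads to be tested.

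The calls stand against a large background. Of all genes tested, 35.5% were called higher and 37.3% lower after compound 28, and 75.7% had groups that did not overlap, as did 9 of the 10 tested HOX genes. The median log2 change was -0.78 over the 10 HOX genes and -0.03 over all genes tested. Of these 10, 4 passed the filter on low reads only through the DMSO libraries (HOXB6, HOXB7, HOXC6 and HOXC10), so the direction of their calls is tied to the filter. The HOX median includes these 4 and is tied to the filter in the same way. The other 6 passed in both groups and held 2 higher calls, 1 lower call and 3 without a call. A log2 change of -2 or below with a call was seen in 3 of the 10 HOX genes and in 9.79% of all genes tested. Those 3 were HOXB6, HOXB7 and HOXC6, all among the 4 tied to the filter. In these bulk samples fewer cells of a type and less RNA per cell cannot be told apart.

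The split between higher and lower calls moved with the scaling. With library sizes only it was 1 higher and 8 lower among the HOX genes and 4218 higher and 9302 lower among all genes, against 6487 higher and 6813 lower on the authors' scale. With 13 mitochondrial mRNAs as the scale it was 0 and 10 among the HOX genes, and 1810 and 13885 among all genes. With 82 ribosomal protein mRNAs it was 0 and 9, and 2234 and 12429. The median of all genes moved to -0.48, -1.47 and -1.13 under these scalings, and to 0.16 with upper-quartile factors. Taken relative to that median, HOXA9 lay 0.61 to 0.63 above it and HOXB3 0.90 to 0.91 above it on the log2 scale in all 6 scalings. The other 8 tested HOX genes lay below the median in all 6, HOXA10 by a difference of -1.13 to -1.12. A scaling moves the log2 change of every gene by nearly the same amount, so these differences had to agree. The 6 scalings are therefore not separate support.

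**Figure D1:**
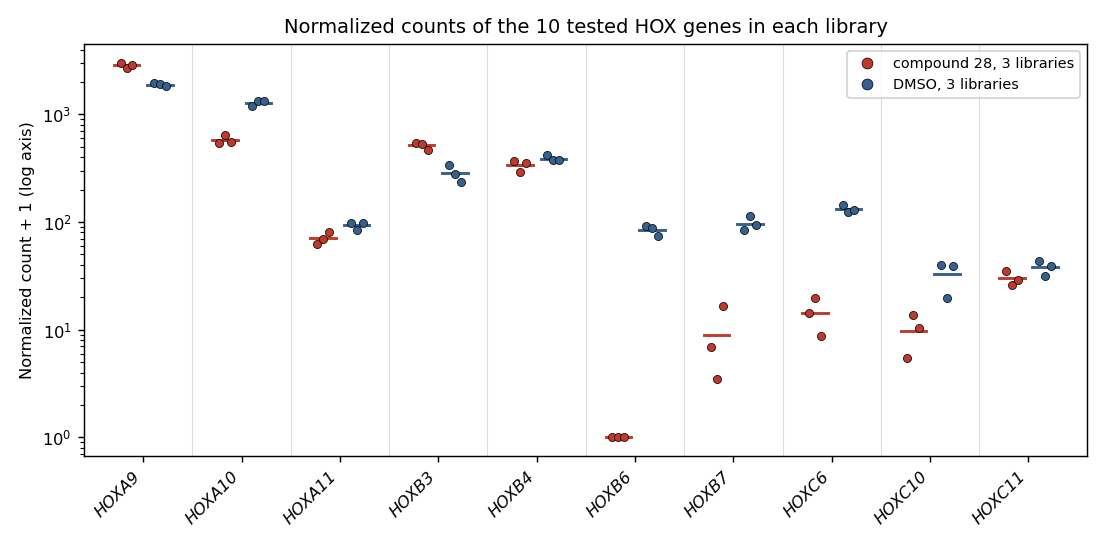
Normalized count plus 1 on a log axis for the 10 tested HOX genes, with compound 28 libraries in red to the left of DMSO libraries in blue; points are libraries and bars are means of 3. HOXB6 had no read in any compound 28 library, and HOXC11 was the only gene whose groups overlapped. The HOXA9 and HOXB3 points are higher with compound 28 on this scale and their direction turns with mitochondrial or ribosomal protein mRNA scaling.

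HOXA9 was the most abundant HOX transcript in both groups. It encodes a posterior HOX factor that supports self-renewal of blood progenitors. Its normalized count was 3020.0, 2723 and 2865 in compound 28 replicates 1 to 3, against 1964, 1900.4 and 1819 in DMSO replicates 1 to 3. All 3 compound 28 libraries lay above all 3 DMSO libraries. The means were 2869 ± 148 with compound 28 and 1895 ± 72.7 with DMSO (SD, n = 3 each), a ratio of 1.51. The log2 change was 0.60 ± 0.08 (SE; limma, adjusted p = 9.1e-05). With library sizes only the call was lost (log2 change 0.14, adjusted p = 0.15, limma). The direction turned with mitochondrial mRNA scaling (-0.86, adjusted p = 2.9e-05) and with ribosomal protein mRNA scaling (-0.52, adjusted p = 0.0022).

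HOXA10, the neighbour of HOXA9 and a factor of uterine and blood cell development, was called lower. It had 539, 639 and 555 normalized counts in the compound 28 libraries, against 1185, 1344 and 1319 in the DMSO libraries. The groups were well apart, at 578 ± 53.7 with compound 28 and 1283 ± 85.6 with DMSO (SD, n = 3 each). The gene fell 2.22-fold, its log2 change being -1.15 ± 0.11 (SE; limma adjusted p = 5.4e-06). The ratio of HOXA9 to HOXA10 within a library, which no scaling can move, was 5.60, 4.26 and 5.16 with compound 28 and 1.66, 1.41 and 1.38 with DMSO. It averaged 5.01 ± 0.683 and 1.48 ± 0.152 in these groups, and the pair was chosen after its values were seen. In GENCODE, 15.9% of the exon bases of HOXA9 and 9.93% of those of HOXA10 are shared with another gene on the same strand. A further 13.9% and 16.4% face HOXA10-AS on the opposite strand. The strand setting of the counting was not given in the sources used here, so reads of a gene and its antisense partner cannot be told apart.

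The promoter windows of HOXA9 and HOXA10 are shown because these neighbours were called in opposite directions on the authors' scale. They are RefSeq windows on GRCh38.p14, each of 300 bases, 250 before to 50 after a start, on the minus strand of chromosome 7, and HOXA10 has 2 listed starts. HOXA9 lies at chr7:27165488-27165787, the upstream HOXA10 window at chr7:27179812-27180111 and the downstream one at chr7:27174271-27174570. Capitals mark matches on either strand to 3 promoter motifs. These are the TATA box, searched as the letters TATAAA, the CCAAT box, searched by those letters, and the E-box, searched as CACGTG.
HOXA9: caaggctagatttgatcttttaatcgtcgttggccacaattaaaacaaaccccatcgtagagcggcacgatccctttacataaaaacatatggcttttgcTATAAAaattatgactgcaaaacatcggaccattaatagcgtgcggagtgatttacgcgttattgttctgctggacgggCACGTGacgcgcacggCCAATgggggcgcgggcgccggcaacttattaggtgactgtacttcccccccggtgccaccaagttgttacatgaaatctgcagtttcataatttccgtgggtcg
HOXA10 upstream: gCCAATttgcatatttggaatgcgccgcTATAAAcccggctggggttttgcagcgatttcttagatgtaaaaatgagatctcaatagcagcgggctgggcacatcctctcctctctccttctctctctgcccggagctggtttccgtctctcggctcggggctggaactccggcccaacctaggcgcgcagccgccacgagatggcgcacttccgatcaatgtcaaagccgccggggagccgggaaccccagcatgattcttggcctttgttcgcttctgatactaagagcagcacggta
HOXA10 downstream: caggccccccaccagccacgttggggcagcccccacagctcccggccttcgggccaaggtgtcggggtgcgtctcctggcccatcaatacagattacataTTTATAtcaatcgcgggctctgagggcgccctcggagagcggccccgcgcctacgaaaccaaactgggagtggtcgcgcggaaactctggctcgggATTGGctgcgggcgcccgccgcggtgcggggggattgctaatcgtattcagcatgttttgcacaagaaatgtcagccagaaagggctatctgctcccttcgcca
All 3 windows held 1 TATAAA and 1 CCAAT match. Positions are those of the leftmost base as printed, counted from the start. The TATAAA match lay at -150 in HOXA9, at -222 in the upstream HOXA10 window and, on the other strand, at -150 in the downstream one. The HOXA9 window alone among the 3 held CACGTG, at -71, and its CCAAT match lay at -55. GC content was 48% for HOXA9, 56.67% for the upstream HOXA10 window and 62.67% for the downstream one, with 22, 21 and 25 CpG dinucleotides. The median over 34943 RefSeq windows of this length was 58.67% GC and 14 CpG dinucleotides.

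A RefSeq window was found for 9 of the 24 HOX rows (HOXA2, HOXA3, HOXA4, HOXA9, HOXA10, HOXA11, HOXA13, HOXC4 and HOXC5). Both strands were searched for 6 motifs, a list made after expression values were seen. A gene was counted if any of its windows matched, while the background counts single windows, so the shares are not like for like. CCAAT was in 8 of the 9 genes and in 34.6% of all windows. TATAAA was in 3 of the 9 (HOXA3, HOXA9 and HOXA10) and in 11.6% of all windows, and CACGTG in 3 (HOXA3, HOXA4 and HOXA9) and in 7.23% of all. The GC box GGGCGG was in 3 (HOXA3, HOXA4 and HOXA13) and in 44.9% of all windows. The HOX-PBX motif TGATTNAT was in HOXA2 alone and in 2.82% of all, and the CDX motif TTTATGG was in none of the 9 and in 2.55% of all. None of the 6 motifs was in the HOXA11 window. HOXC4 and HOXC5 share 1 window, so they are not separate matches.

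HOXA11, which patterns the forearm and the endometrium, did not pass the test. It had 61.7, 67.9 and 79.3 normalized counts with compound 28, against 96.7, 82.9 and 96.5 with DMSO. The 2 groups did not overlap, with means of 69.6 ± 8.91 and 92.0 ± 7.92 (SD, n = 3 each). Its log2 change was -0.40 ± 0.23 (SE, adjusted p = 0.13, limma). Under scaling by library size alone HOXA11 passed the test as lower (-0.85, adjusted p = 0.0058). Of its exon bases, 31.1% face HOXA11-AS on the opposite strand.

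In the HOXB cluster, HOXB3 and HOXB4 were the abundant members, and HOXB6 and HOXB7 had few or no reads after compound 28. HOXB3 acts in the hindbrain and in blood progenitors. It had 543, 532 and 471 normalized counts in the compound 28 libraries, against 336, 279.7 and 233 in the DMSO libraries. Every compound 28 value lay above every DMSO value. The means were 516 ± 39.0 with compound 28 and 283 ± 51.9 with DMSO (SD, n = 3 each), a ratio of 1.82. The log2 change was 0.88 ± 0.16 (SE; limma, adjusted p = 0.00052). The direction turned with mitochondrial mRNA scaling (-0.58, adjusted p = 0.0042) and with ribosomal protein mRNA scaling (-0.24, adjusted p = 0.18).

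HOXB4, known for expanding blood stem cells, did not pass the test. It had 370.2, 291 and 349.7 normalized counts with compound 28, against 415, 374 and 377 with DMSO. The ranges did not overlap but lay close, with means of 337 ± 41.3 with compound 28 and 388 ± 22.8 with DMSO (SD, n = 3 each). The log2 change was -0.21 ± 0.14 (SE, adjusted p = 0.20, limma). Under scaling by library size alone HOXB4 passed as lower (-0.66, adjusted p = 0.0014). HOXB3 lies next to HOXB4, and the ratio of HOXB3 to HOXB4 within a library was 1.47, 1.83 and 1.35 with compound 28 and 0.811, 0.749 and 0.618 with DMSO. The pair was chosen after its values were seen. Of the exon bases of HOXB4, 17.1% are shared with other genes on the same strand, HOXB3 among them, so how reads were split between the 2 genes is uncertain.

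HOXB6 had no read in any compound 28 library. The DMSO libraries held 158, 134 and 85 reads, or 91.5, 86.8 and 73.3 normalized counts, with a mean of 83.8 ± 9.46 (SD, n = 3). HOXB6 is a trunk-level gene also studied in blood progenitors. With the compound 28 group set at 3 reads in total as a floor, it was at least 60.1-fold lower (adjusted p = 4.0e-07, limma). In GENCODE, 16.6% of its exon bases are shared with HOXB3 on the same strand, and 16.3% face HOXB-AS3 on the other. Ambiguous reads made up 5.89% to 6.56% of all reads with compound 28 and 7.10% to 7.40% with DMSO, and their part in the HOXB6 result was not tested.

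HOXB7, a trunk-level gene studied in breast cancer invasion, kept a few reads. Reads numbered 4, 2 and 10 in the compound 28 libraries, against 143, 174 and 107 in the DMSO libraries. These came to 7.98 ± 6.76 normalized counts with compound 28 and 95.9 ± 15.3 with DMSO (SD, n = 3 each). Replicate 3 held most of what was left after compound 28. HOXB7 fell 12.0-fold as a ratio of means, its log2 change being -3.71 ± 0.51 (SE; limma adjusted p = 7.7e-05). None of its exon bases are shared with another gene.

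Loss of all reads was rare at this level. Of the 1328 genes tested whose DMSO mean lay between 50 and 100 normalized counts, 5 genes, or 0.377%, had no read in any compound 28 library, and HOXB6 was among those 5. Over all genes tested, 49 had none. The band from 50 to 100 was chosen after the value of HOXB6 was seen.

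Of the 3 HOXC genes tested, 2 were called lower and none higher, beside 37.3% lower and 35.5% higher of all genes tested. Those 2, HOXC6 and HOXC10, passed the filter only through the DMSO libraries, so the direction of their calls is tied to the filter. HOXC6, a trunk-level gene, had 13.2, 18.9 and 7.77 normalized counts with compound 28, against 142, 124 and 128 with DMSO. The groups were far apart, with means of 13.3 ± 5.55 and 131 ± 9.75 (SD, n = 3 each). HOXC6 fell 9.90-fold, its log2 change being -3.29 ± 0.34 (SE; limma adjusted p = 9.9e-06). Of its exon bases, 15.7% are shared with HOXC4, HOXC5 or HOXC9 on the same strand.

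HOXC10, which acts in motor neurons of the lumbar spinal cord in mouse, had 4.41, 12.6 and 9.33 normalized counts with compound 28, against 38.8, 18.8 and 37.9 with DMSO. DMSO replicate 2 lay below the other DMSO libraries and nearest to those of compound 28. The means were 8.77 ± 4.11 with compound 28 and 31.8 ± 11.3 with DMSO (SD, n = 3 each). HOXC10 fell 3.63-fold, its log2 change being -1.78 ± 0.47 (SE; limma adjusted p = 0.0061). HOXC11 had 33.8, 25.2 and 28.0 normalized counts with compound 28, against 42.8, 30.4 and 37.9 with DMSO. Its groups overlapped, and its log2 change was -0.34 ± 0.31 (SE, adjusted p = 0.34, limma). Under scaling by library size alone it passed as lower (-0.78, adjusted p = 0.041).

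**Figure D2:**
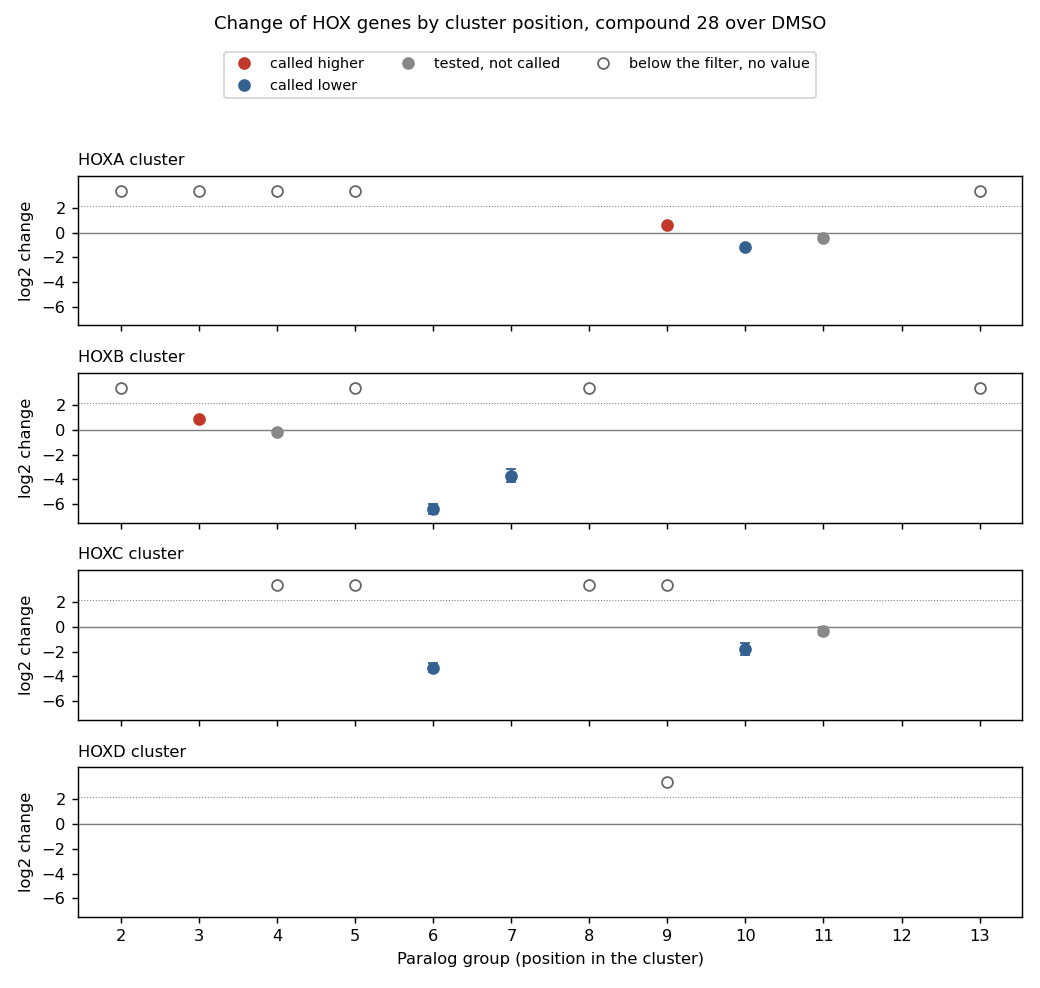
Log2 change, compound 28 over DMSO, of HOX genes by paralog group in each cluster; filled points are tested genes with SE bars, and symbols above the dotted line mark genes below the filter, with no value. HOXB6, HOXB7, HOXC6, HOXA10 and HOXC10 lie below 0, and HOXA9 and HOXB3 lie above 0 but turn below it with mitochondrial or ribosomal protein mRNA scaling.

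The other 14 HOX rows held 204 reads in all, with at most 30 reads in any group, and were below the filter. Of these, 7 had a higher mean normalized count with compound 28 and 7 a lower one. HOXA2, which patterns the hindbrain and the second branchial arch, had 6, 10 and 13 reads with compound 28, against 1, 1 and 0 with DMSO. The pooled ratio of normalized counts was 30.3, with an exact 95% counting interval of 7.67 to 262. HOXA3, needed for thymus and parathyroid in mouse, had 7, 18 and 5 reads with compound 28, against 2, 1 and 1 with DMSO, a pooled ratio of 15.7 with an interval of 5.53 to 61.3. HOXC4, a regulator of antibody diversification in mouse B cells, had 6, 15 and 9 reads with compound 28, against 4, 6 and 6 with DMSO. Its pooled ratio was 3.92, with an interval of 2.07 to 7.70. Intervals and floors cover counting error only, since reads without molecular identifiers are not independent molecules.

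HOXC9, a trunk-level gene, had the larger read number in DMSO. It had 0, 0 and 2 reads with compound 28, against 4, 12 and 7 with DMSO, a pooled ratio of 0.182 with an interval of 0.0208 to 0.736. HOXA13, which patterns the hand and foot, had 1 read with compound 28, against 0, 10 and 10 with DMSO, a pooled ratio of 0.105 with an interval of 0.00252 to 0.654. HOXB2, a hindbrain gene, had 6, 0 and 1 reads with compound 28 and none with DMSO. It was 4.88-fold higher against the same floor, and the counting interval of its ratio began at 3.01. Most of its reads came from 1 library. When no filter was set, HOXA2 (adjusted p = 0.00054, limma), HOXA3 (0.002) and HOXC4 (0.03) were called higher and HOXC9 (0.049) lower. Over all 32322 genes, 8215 were then called higher and 7503 lower. The HOXC9 groups overlapped in normalized counts, and the authors' deposited table does not have HOXC9 as lower (adjusted p = 0.21). The remaining 8 rows had fewer than 10 reads over all 6 libraries, or 10 in the case of HOXA5. With compound 28, reads numbered 0 for HOXA4, HOXB5 and HOXB13, 1 for HOXA5, HOXB8 and HOXD9, and 4 for HOXC5 and HOXC8. With DMSO they numbered 5 for HOXA4, 9 for HOXA5, 2 for HOXB5, 4 for HOXB8 and HOXB13, 1 for HOXC5 and HOXD9, and 3 for HOXC8. HOXD9 is the HOXD gene analysed here. At this depth no difference was detectable in these 8 rows, since the counting intervals of their ratios all held 1.

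Per kb of exon, HOXA9 and HOXA10 led the HOX genes in both groups. HOXA9 stood at 947 ± 49.0 normalized counts per kb with compound 28 and 626 ± 24.0 with DMSO (SD, n = 3 each), above 90.7% and 86.6% of tested genes with a known length. HOXA10 stood at 156 ± 14.5 with compound 28 and 346 ± 23.1 with DMSO, above 62.4% and 76.2% of those genes. HOXB4 came after HOXA10 in both groups, at 89.6 ± 11.0 with compound 28 and 103 ± 6.07 with DMSO. Lengths were found for 17778 of the 18278 genes tested.

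Below these 3 genes the order differed between the groups. With compound 28 the next were HOXB3 at 69.1 ± 5.23 per kb, HOXA11 at 30.2 ± 3.86 and HOXC11 at 8.87 ± 1.35. In DMSO the next was HOXB7 at 62.8 ± 10.0 per kb. It was followed by HOXA11 at 39.9 ± 3.43, HOXB3 at 37.9 ± 6.96, HOXC6 at 37.1 ± 2.75 and HOXB6 at 32.2 ± 3.63. Neighbours in this order overlapped between libraries from HOXA11 to HOXB6, while all DMSO libraries had less HOXB6 than HOXA11 per kb. HOXC10 at 13.7 ± 4.85 and HOXC11 at 11.4 ± 1.91 per kb closed the tested genes in DMSO, and these 2 did not differ beyond their spread. With compound 28 HOXB7 stood at 5.22 ± 4.43 per kb, rank 8 of the 24 rows, and HOXC6 at 3.75 ± 1.57, rank 11.

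The cluster sums were carried by a few genes each, and their ratios between the groups are given on the authors' scale. HOXA rows summed to 3545 ± 88.8 normalized counts with compound 28 and 3279 ± 54.4 with DMSO (SD, n = 3 each), a ratio of 1.08. HOXB rows summed to 864 ± 57.1 with compound 28 and 853 ± 75.3 with DMSO, a ratio of 1.01. HOXC rows summed to 70.0 ± 5.42 with compound 28 and 210.4 ± 22.4 with DMSO, a ratio of 0.333. The HOXC sum was lower in each compound 28 library than in any DMSO library. All 24 rows summed to 4480 ± 139 with compound 28 and 4343 ± 90.6 with DMSO. Without HOXA9 the sums were 1610.3 ± 38.0 with compound 28 and 2448 ± 30.9 with DMSO, a ratio of 0.658. As a share of reads in genes, with no size factor, HOX rows took 100.1 to 108 CPM with compound 28 and 132 to 140.5 CPM with DMSO.

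HOXA9 made up 64.0% ± 1.49 of the HOX sum with compound 28 and 43.6% ± 0.854 with DMSO (SD, n = 3 each). HOXA10 made up 12.9% ± 1.54 with compound 28 and 29.6% ± 2.33 with DMSO. HOXB3 made up 11.5% ± 0.802 and HOXB4 7.51% ± 0.743 with compound 28, against 6.50% ± 1.08 and 8.94% ± 0.442 with DMSO. These shares do not depend on the scaling, and the ranges of HOXA9, HOXA10, HOXB3 and HOXB4 did not overlap between the groups. The HOXC rows together held 1.56% with compound 28 and 4.84% with DMSO.

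**Figure D3:**
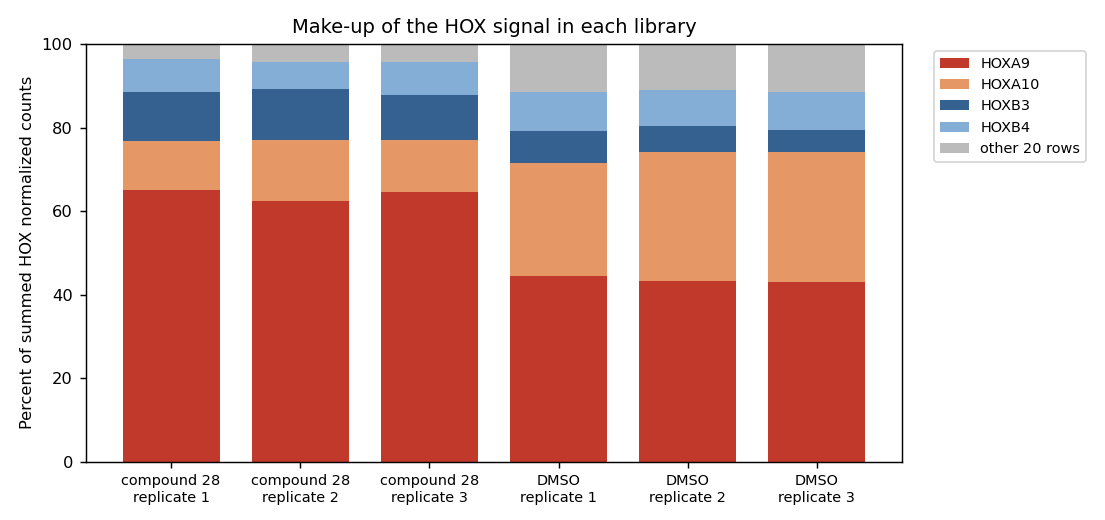
Percent of the summed HOX normalized counts in each library taken by HOXA9, HOXA10, HOXB3, HOXB4 and the other 20 rows, with compound 28 libraries on the left. HOXA9 takes 62.3% to 65.1% with compound 28 and 42.9% to 44.6% with DMSO, and HOXA10 takes 11.6% to 14.6% with compound 28 and 26.9% to 31.1% with DMSO.

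By position, paralog groups 5 to 8 had the lowest ratio of summed levels among 3 bands, which were chosen after the values were seen. Ratios and calls of the bands are on the authors' scale. With mitochondrial mRNA scaling all 10 tested HOX genes were called lower, as were 13885 of the 18278 genes tested. Rows of paralog groups 5 to 8 summed to 26.3 ± 4.85 normalized counts with compound 28 and 315 ± 17.5 with DMSO (SD, n = 3 each), a ratio of 0.0834. The 3 tested genes in this band, HOXB6, HOXB7 and HOXC6, were all called lower, and all 3 passed the filter only through the DMSO libraries. Rows of groups 1 to 4 summed to 897 ± 46.6 with compound 28 and 677 ± 71.5 with DMSO, a ratio of 1.32, and held 1 higher call (HOXB3) and 1 gene without a call (HOXB4). Rows of groups 9 to 13 summed to 3556 ± 95.5 with compound 28 and 3350.1 ± 35.9 with DMSO, a ratio of 1.06. They held 1 higher call (HOXA9), 2 lower calls (HOXA10 and HOXC10) and 2 genes without a call. In group 6 both tested paralogs, HOXB6 and HOXC6, were called lower, as were HOXA10 and HOXC10 in group 10. In group 11 neither HOXA11 nor HOXC11 was called.

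**Figure D4:**
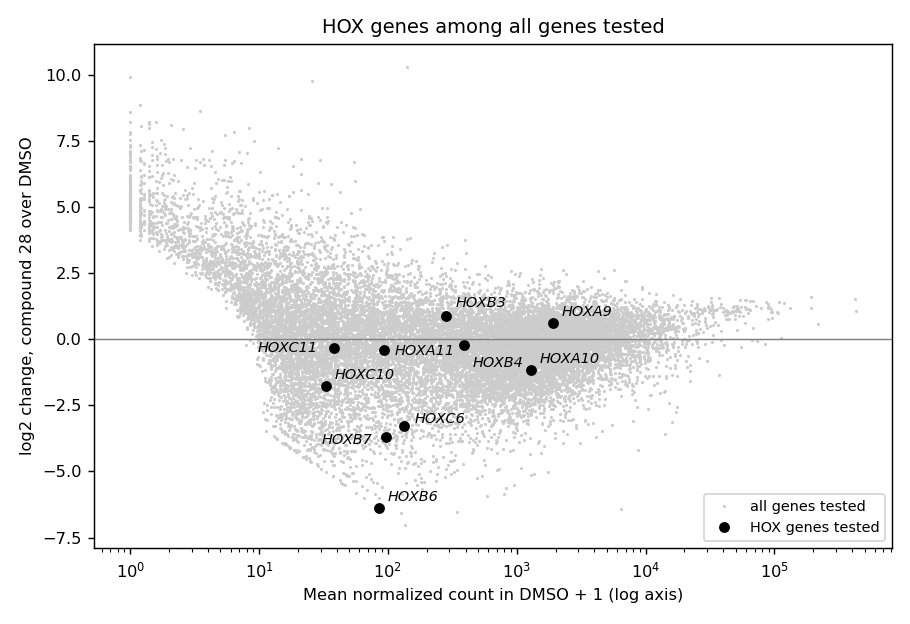
Log2 change, compound 28 over DMSO, against the mean normalized count in DMSO plus 1 on a log axis, for all 18278 genes tested (gray) and the 10 tested HOX genes (black). HOXB6 lies at the lower edge of the cloud, and HOXA9 and HOXA10 lie within it at high level; HOXA9 and HOXB3 fall below 0 with mitochondrial or ribosomal protein mRNA scaling.

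TALE cofactors, the DNA-binding partners of HOX proteins, were called in both directions on the authors' scale. Of 8 rows 7 were tested, and 2 were called higher, 3 lower and 2 neither, beside 72.8% of all genes tested that were called in either direction. MEIS1, the partner of HOXA9 in leukaemia, had 759, 739.6 and 647 normalized counts with compound 28, against 3792, 3819 and 3639 with DMSO. MEIS1 fell 5.24-fold, its log2 change being -2.39 ± 0.09 (SE; limma adjusted p = 3.4e-08). MEIS1 is also on the myeloid marker list above. MEIS2 fell 6.27-fold, at 63.3 ± 23.3 with compound 28 and 397 ± 30.8 with DMSO (SD, n = 3 each; adjusted p = 4.2e-06). PBX4 fell 2.02-fold, with 47.0, 57.9 and 45.1 normalized counts with compound 28, against 114, 115 and 73.3 with DMSO (adjusted p = 0.0071).

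PKNOX1, also called PREP1, which binds with PBX proteins, was called higher. It had 2145, 2147 and 2140.3 normalized counts with compound 28, against 916, 903 and 933 with DMSO, a ratio of 2.34 (adjusted p = 5.8e-07, limma), but its log2 change was -0.23 with mitochondrial mRNA scaling. MEIS3 was higher, at 68.9 ± 23.9 with compound 28 and 33.7 ± 4.19 with DMSO (adjusted p = 0.020), with the direction turned by mitochondrial (-0.47) and ribosomal protein (-0.13) mRNA scaling. The MEIS3 call was lost without compound 28 replicate 2 (adjusted p = 0.051) or replicate 3 (0.076). PBX3 stood at 2697 ± 408 with compound 28 and 2751 ± 85.8 with DMSO (adjusted p = 0.76). PBX2 ranged widely in both groups, with 181, 23.9 and 24.9 with compound 28, against 17.9, 221 and 35.3 with DMSO (adjusted p = 0.91). PKNOX2 had 2 reads in all and was not tested.

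Noncoding RNAs of the HOX clusters were likewise called in both directions on that scale. Of 13 analysed, 5 were tested, with 2 called higher, 1 lower and 2 neither, beside 35.5% higher and 37.3% lower of all genes tested. HOTAIRM1, a noncoding RNA of the HOXA cluster known from myeloid differentiation, stood at 182 ± 23.0 normalized counts with compound 28 and 299.6 ± 44.4 with DMSO (SD, n = 3 each). Its log2 change was -0.72 ± 0.18 (SE, adjusted p = 0.0037, limma). HOXA10-AS had 219, 177 and 239 with compound 28, against 104, 115 and 119 with DMSO, a ratio of 1.88 (adjusted p = 0.0014). It faces exon bases of both HOXA10, which was lower, and HOXA9, which was higher on that scale. The direction of HOXA10-AS turned with mitochondrial (-0.55) and ribosomal protein (-0.21) mRNA scaling. HOXB-AS2 had 51.4, 28.9 and 57.5 with compound 28, against 6.95, 2.59 and 11.2 with DMSO, a ratio of 6.65 (adjusted p = 0.00071). It reached the filter in 3 compound 28 libraries and 1 DMSO library, so the direction of its call is tied to the filter. Its log2 change ran from 1.34 to 3.08 over the alternatives. HOXA11-AS stood at 142 ± 24.1 with compound 28 and 103 ± 16.3 with DMSO (adjusted p = 0.084), and HOXC-AS3 at 23.3 ± 6.53 and 28.4 ± 4.66 (adjusted p = 0.46). HOTAIR, the HOXC noncoding RNA studied in breast cancer metastasis, had 5, 1 and 9 reads with compound 28 and 10, 8 and 3 with DMSO and was not tested.

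**Figure D5:**
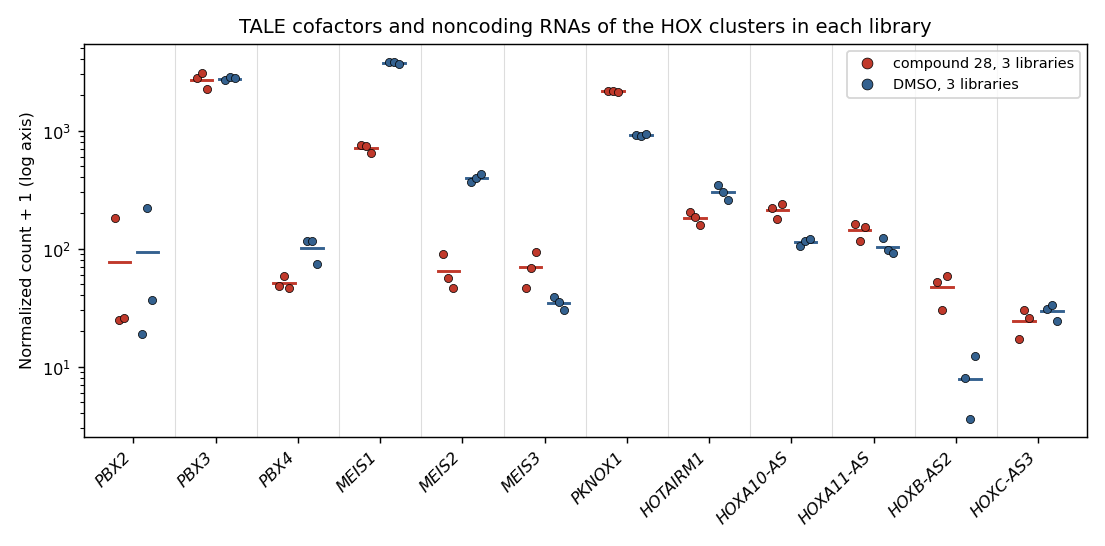
Normalized count plus 1 on a log axis for the 7 tested TALE cofactors and 5 tested noncoding RNAs of the HOX clusters, compound 28 (red) left of DMSO (blue); points are libraries and bars are means of 3. MEIS1 and MEIS2 are lower and HOXB-AS2 higher with compound 28, and the PBX2 points spread over both groups.

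A further list held genes linked to HOX expression, most of them chromatin regulators. Of its 29 rows 28 were tested, with 9 called higher, 14 lower and 5 neither, beside 35.5% higher and 37.3% lower of all genes tested. The list's median log2 change was -0.37, against -0.03 over all genes tested. ASH1L, a Trithorax-group histone methyltransferase, had the largest rise, at 13898 ± 547 normalized counts with compound 28 and 2287 ± 505 with DMSO (SD, n = 3 each), a ratio of 6.08 (adjusted p = 1.1e-07, limma). EED, a core subunit of Polycomb repressive complex 2, had the largest fall, 9.92-fold, at 86.6 ± 9.15 with compound 28 and 859 ± 80.8 with DMSO (adjusted p = 6.2e-08). NPM1, the most abundant of the list, stood at 30836 ± 1332 with compound 28 and 32783 ± 691 with DMSO (log2 change -0.09, adjusted p = 0.37, limma). NPM1 passed the test as lower with library sizes only (-0.54, adjusted p = 0.00019), mitochondrial mRNA scaling (-1.55, adjusted p = 1.8e-07) and ribosomal protein mRNA scaling (-1.21, adjusted p = 3e-06), and its direction turned, without a call, with upper-quartile factors (0.11).

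In the authors' deposited table, 18 of the 24 HOX rows had an adjusted p, with 5 higher and 5 lower at 0.05. The authors' calls over all genes were not counted here, so these numbers stand without their background. With DESeq2 run here, 6434 of 18278 genes were called higher and 6661 lower. The 3 beyond HOXA9 and HOXB3 that the authors' deposited table has as higher are HOXA2 (adjusted p = 0.00072), HOXA3 (0.0015) and HOXC4 (0.048), and its 5 lower genes are the 5 called lower here.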

How the data were processed

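RNA of 3 compound 28 and 3 DMSO libraries, grouped by title, was measured by stranded sequencing of polyadenylated RNA after TRIzol extraction, per the labels' protocols. The submitters' processing notes list HTSeq, SAMtools, HISAT2, StringTie and fastp and the builds hg19 and GRCh37, with no versions. No source used here says whether counting used strand. Each deposited signal is, from its values, a read count divided by 1 size factor per library, and 100% of values came out as whole reads within 0.01 read. A log2 fold change, a test score and raw and adjusted p-values of the authors stand in the same table, per the file headers, and serve here only in sentences naming it. Of 32327 rows, 5 summary counters, holding 30.4% to 46.9% of reads, were left out. Another 8 rows with names like calendar dates were kept and not named.

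The main test was limma-trend (limma 3.58.1, R 4.3.3) on log2(normalized count + 1), after the edgeR 4.0.16 filter filterByExpr (0.281 CPM in at least 3 libraries), with Benjamini-Hochberg adjustment over 18278 genes and a threshold of 0.05. The pseudocount understates changes of low genes. Count tests on the recovered reads with edgeR and DESeq2 1.42.0, other scalings, pseudocounts (0.5 and 5), filters, a replicate block and leaving out each library were alternatives. The fits were tested on simulated data. Cluster sums, shares and ratios carry no test. Ratios of rows below the filter, and the HOXB6 interval, pool reads over size factors with an exact 95% interval. Members with 0 reads were set at a floor of 3 reads over the group. Exon lengths and overlaps came from GENCODE 29 on GRCh38, and promoter windows from RefSeq on GRCh38.p14; since the submitters' build differs, no coordinate of a table row is given.

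Tested HOX members are given in every library, the others by reads. Of the rows that the rules select, 1 HOX gene and 1 TALE cofactor are not reported here, while the fit ran on the whole table. From each further list, every tested TALE cofactor and the most abundant member and the largest called rise and fall were named. The members, lists and tests were chosen with earlier results of these data known. Further noncoding RNAs and the genes named as markers were chosen after their values were seen.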

Additional observations from a re-analysis of the deposited data

How the results depend on the processing

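Of the 10 tested HOX genes, 10 kept their call with TMM and upper-quartile factors, pseudocounts of 0.5 and 5, no filter, edgeR, DESeq2, the replicate block and each library left out. With a mean of at least 1 CPM, all 8 that still had a value kept it, and HOXC10 and HOXC11 had none, since fewer genes were tested. Scalings moved calls: 6 of 10 held with library sizes only and 5 of 10 with mitochondrial or with ribosomal protein mRNA scaling. The 5 genes called lower stayed lower in all alternatives that gave a value, with adjusted p up to 0.029 for HOXC10. All of them but HOXA10 passed the filter only through the DMSO libraries, so their direction is tied to the filter and its persistence is no separate support. HOX genes called higher numbered 2, against 1 with library sizes only, 0 with mitochondrial and 0 with ribosomal protein mRNA scaling. Without the filter they numbered 5, where 24 rows entered, beside 8215 of all 32322 genes. HOX genes called lower numbered 5, against 8 with library sizes only and 10 and 9 under the mitochondrial and ribosomal scalings. The HOX median log2 change, -0.78, was -1.23 when scaled by library size alone, -0.58 with upper-quartile factors, -2.22 with mitochondrial and -1.88 with ribosomal protein mRNA scaling, and -0.37 without the filter. With 1 library left out it ran from -0.81 to -0.75, with 2 higher and 5 lower in each case.

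Directions turned as follows. Mitochondrial mRNA scaling gave HOXA9 -0.86, HOXB3 -0.58, HOXA10-AS -0.55, HOXA11-AS -0.99, MEIS3 -0.47, PKNOX1 -0.23 and CBX5 -0.13. Ribosomal protein mRNA scaling gave HOXA9 -0.52, HOXB3 -0.24, HOXA10-AS -0.21, HOXA11-AS -0.65 and MEIS3 -0.13. Upper-quartile factors gave PBX2 0.064, PBX3 0.16 and NPM1 0.11. With 1 library left out PBX2 ran from -1.08 to 0.90, above 0 without compound 28 replicate 2 (0.36) or 3 (0.33) or DMSO replicate 2, and PBX3 ran from -0.14 to 0.084, above 0 without compound 28 replicate 3. The cause of the shifts between scalings was not tested.

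Same-numbered libraries of the 2 groups correlated in their deviations at -0.02, 0.04 and 0.07, so no shared replicate effect was seen. These values cannot show whether the samples were handled in pairs. With the replicate block, 2 HOX genes were called higher and 5 lower, with a HOX median of -0.78, and 6511 and 6769 genes were called over the whole table, against 6487 and 6813. With 3 libraries per group and at most 30 reads per group in 14 of 24 rows, differences in those rows rest on few reads.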

Other observations

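Genes that flank the HOX clusters were described as neighbours that carry no HOX homeodomain. Of 9 rows 8 were tested, with 4 called higher, 2 lower and 2 neither, beside 72.8% of all genes tested that were called in either direction, and the median log2 change was 0.21. CBX5, which encodes the heterochromatin protein HP1 alpha and lies beside the HOXC cluster, was the most abundant, at 22525 ± 1847 normalized counts with compound 28 and 9105 ± 1898 with DMSO (SD, n = 3 each; log2 change 1.32, adjusted p = 8.9e-06, limma). Its direction turned with mitochondrial mRNA scaling (-0.13). SKAP1, a T cell adaptor gene beside the HOXB cluster, had 18, 19 and 16 reads with compound 28, against 0, 0 and 1 with DMSO (adjusted p = 1.9e-05). It passed the filter on low reads only through the compound 28 libraries, so the direction of its call is tied to the filter. SMUG1, a uracil DNA glycosylase gene beside HOXC, fell 1.95-fold, at 457 ± 20.5 with compound 28 and 894 ± 51.9 with DMSO (adjusted p = 1.7e-05).

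Of 11 listed homeobox genes related to the clusters, 5 were analysed and 2 tested. GSX1 had 1, 7 and 0 reads with compound 28 and none with DMSO, MNX1 had 0, 8 and 0 with compound 28 and 1, 0 and 0 with DMSO, and GSX2 had none with compound 28 and 0, 0 and 6 with DMSO. CDX2, an intestinal regulator of HOX genes, had 116, 181 and 103 normalized counts with compound 28, against 4.05, 5.83 and 8.62 with DMSO, a ratio of 21.6 (adjusted p = 3.0e-06, limma). GBX1 had 42, 51 and 36 reads with compound 28, against 0, 1 and 0 with DMSO (adjusted p = 1.3e-06). CDX2 and GBX1 passed the filter only through the compound 28 libraries, so nothing is read from the direction of their calls.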
